A study of Mus musculus with 38 samples.

Results

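The respiratory chain subunit genes were the nuclear genes whose symbols begin with Ndufa, Ndufb, Ndufc, Ndufs or Ndufv and a digit, with Uqcr, with Cox4 to Cox8 or with Atp5, or are Sdha, Sdhb, Sdhc or Sdhd. On the arrays 164 of 45101 probe sets, for 81 of 18194 genes, were assigned to 1 such symbol alone, and 7 further probe sets that shared a symbol of this kind with other genes were not counted. Genes were assigned to complexes by the start of the symbol alone. Complex I, NADH dehydrogenase, had 73 probe sets for 35 genes. Complex II, succinate dehydrogenase, had 9 for 4 genes, complex III, cytochrome bc1, had 16 for 8, complex IV, cytochrome c oxidase, had 35 for 17, and complex V, ATP synthase, had 31 for 17. A probe set is a group of short array probes that together report 1 transcript, and 48 of the genes had more than 1.

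Whole testes of juvenile males were measured at 5 and 7 days postpartum (dpp), 1 male to an array, in 38 arrays of 11 groups. B6 (C57BL/6J) and MSM (MSM/Ms, an inbred strain derived from Japanese wild mice) were the parental strains. B6-ChrXMSM carried the MSM X chromosome on a B6 background, B6-ChrXTMSM carried only its distal part, and XS39-tel, measured at 5 dpp alone, carried a shorter stretch reaching the telomere. The F1 males came from B6-ChrXTMSM females and B6-Chr1MSM males, so they had the X chromosome of B6-ChrXTMSM and 1 MSM copy of chromosome 1. Each group held 3 males, apart from 8 F1 males at 7 dpp. The comparisons ask how an MSM X chromosome among B6 autosomes bears on testis gene expression, and whether an MSM chromosome 1 changes that. No male carried a transgene or received a drug.

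The respiratory chain passes electrons from NADH and succinate through complexes I to IV to oxygen, and complex V uses the proton gradient so built to make ATP. Most subunits are made in every cell, but complex IV has paired isoforms that are used in particular tissues: Cox6b2, Cox7b2 and Cox8c are known from the testis, Cox6a2, Cox7a1 and Cox8b from heart and muscle, and Cox4i2 from the lung. Early postnatal testes hold Sertoli cells, Leydig cells, peritubular cells and a minority of germ cells that multiply and start to differentiate over these days.

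The promoters of a pair of testis isoforms of complex IV, and of 2 widely expressed complex IV subunits, are shown because the testis isoforms were the only subunits called against B6 in the strains on a B6 background, while the other 2 were not called in any comparison. Each window runs from 250 bases before to 50 bases after the annotated start in RefSeq (GRCm38.p6), 5′ to 3′ on the gene's strand, and capitals mark matches to GCGCA and GCGC with any 1 base between them (the core bound by NRF-1) or CCGGAAG (the core bound by ETS factors such as GABPA) on either strand.
Cox7b2, chr5:71548156-71548455, minus strand: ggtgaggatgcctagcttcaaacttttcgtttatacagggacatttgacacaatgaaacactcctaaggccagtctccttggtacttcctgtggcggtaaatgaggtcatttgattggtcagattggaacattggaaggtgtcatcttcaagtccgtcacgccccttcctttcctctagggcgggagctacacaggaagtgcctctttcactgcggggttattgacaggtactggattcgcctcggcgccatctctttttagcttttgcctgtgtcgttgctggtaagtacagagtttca
Cox6b2, chr7:4753045-4753344, minus strand: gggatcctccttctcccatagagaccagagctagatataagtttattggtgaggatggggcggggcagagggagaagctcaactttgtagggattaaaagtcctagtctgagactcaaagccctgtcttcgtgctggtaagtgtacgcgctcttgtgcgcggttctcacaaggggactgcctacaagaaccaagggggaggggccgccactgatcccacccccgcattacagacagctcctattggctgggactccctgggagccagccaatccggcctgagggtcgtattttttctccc
Cox6b1, chr7:30626065-30626364, minus strand: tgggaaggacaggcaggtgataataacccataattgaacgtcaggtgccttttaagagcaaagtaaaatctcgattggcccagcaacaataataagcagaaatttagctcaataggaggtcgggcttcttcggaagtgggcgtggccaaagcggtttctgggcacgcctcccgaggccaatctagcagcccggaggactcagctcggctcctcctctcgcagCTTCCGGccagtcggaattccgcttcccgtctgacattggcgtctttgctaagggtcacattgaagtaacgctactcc
Cox6a1, chr5:115348909-115349208, minus strand: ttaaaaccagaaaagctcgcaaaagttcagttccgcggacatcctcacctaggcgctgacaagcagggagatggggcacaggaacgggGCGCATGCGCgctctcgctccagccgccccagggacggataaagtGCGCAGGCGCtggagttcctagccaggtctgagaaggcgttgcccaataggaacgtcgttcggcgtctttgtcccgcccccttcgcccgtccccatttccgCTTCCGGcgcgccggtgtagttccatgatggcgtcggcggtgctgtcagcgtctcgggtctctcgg

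Of the 81 genes, 66 matched a promoter window. The NRF-1 core stood in 14 of these (21.2%) against 4.78% of 27025 promoters of all genes, CCGGAAG in 16 (24.2%) against 9.12%, and ANATGGCGG, a core of the YY1 site, in 5 (7.58%) against 1.96%. The windows of the subunit genes held a median of 19 CG pairs against 7 over all promoters. Those of Cox7b2 and Cox6b2 held 10 CG pairs each and none of these 3 strings, which says only that these letters are not in these windows.

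The signals are log2 values after robust multi-array averaging (RMA), and a log2 difference of 1 is a doubling. Array medians lay between 2.63 and 2.71 and arrays of a group correlated at 0.989 to 0.997, the lowest value falling within XS39-tel, between replicates 1 and 3. Probe sets were tested when at least 1 of the groups compared had a mean signal above 10 (log2 3.32), and were called when the change reached 1.5-fold with p under 0.05 in the limma fit over all probe sets, after Benjamini-Hochberg adjustment. Of the 164 probe sets 131 were above that level in every group, 4 in some groups and 29 in none. At least 1 probe set was above it in every group for 74 of the 81 genes. In whole testis, fewer cells of a type and less RNA per cell cannot be told apart. Germ cell marker signals, summed over 18 genes such as Dazl and Ddx4, differed strongly between groups and are given beside the results they moved with. Taf7l and Nxf2, also on this list, lie on the distal X chromosome. Their copies were therefore MSM in males with an MSM distal X chromosome. The sums and calls below include them, and the part of the MSM copies in these was not tested. Tex11 of the germ cell list, and Gata1 and Rhox5 of the Sertoli cell list, are X-linked too. The part of their MSM copies, where carried, was not tested either. Neither the germ cell nor the Sertoli cell list was split by chromosome.

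Away from the MSM parent, the respiratory chain subunits held nearly the same level in every strain. In the 7 comparisons of B6-ChrXMSM, B6-ChrXTMSM, XS39-tel and F1 males with B6, 128 to 134 subunit probe sets were tested. Their median log2 fold change lay between -0.07 and 0.05, against -0.01 to 0.02 over all probe sets tested. Of the subunit probe sets 81.2% to 97.8% were within 0.2 of 0. That share was not computed over all probe sets, so nothing particular to the subunits is read from it. The subunit probe sets called in these 7 comparisons belonged to 2 genes, Cox7b2 and Cox6b2. At 5 dpp, limma called 1 of 134 in B6-ChrXMSM, where 1.68% of all probe sets tested were called. None of 134 was called in B6-ChrXTMSM (0.307% of all called, and 32 subunit probe sets at an unadjusted p under 0.05), none of 134 in XS39-tel (0.65%, 13 at an unadjusted p under 0.05) and none of 129 in F1 (0.54%, 7 at an unadjusted p under 0.05). The share of all probe sets at an unadjusted p under 0.05 is not given here. Nothing particular to the subunits is therefore read from such counts, here or below.

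At 7 dpp the wider expression changes left the subunits largely aside. In B6-ChrXMSM 2 of 133 were called (1.5%), where 6.09% of all probe sets were, and in B6-ChrXTMSM 2 of 133 (1.5%) where 5.73% were. None of 128 was called in F1 males by limma, where 1.72% of all probe sets were and 17 subunit probe sets had an unadjusted p under 0.05. With no fold requirement, an adjusted p under 0.05 was reached by 32 subunit probe sets in B6-ChrXMSM (24.1%, against 40.1% of all) and by 30 in B6-ChrXTMSM (22.6%, against 42.0%), in both directions and mostly by small amounts.

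**Figure D1:**
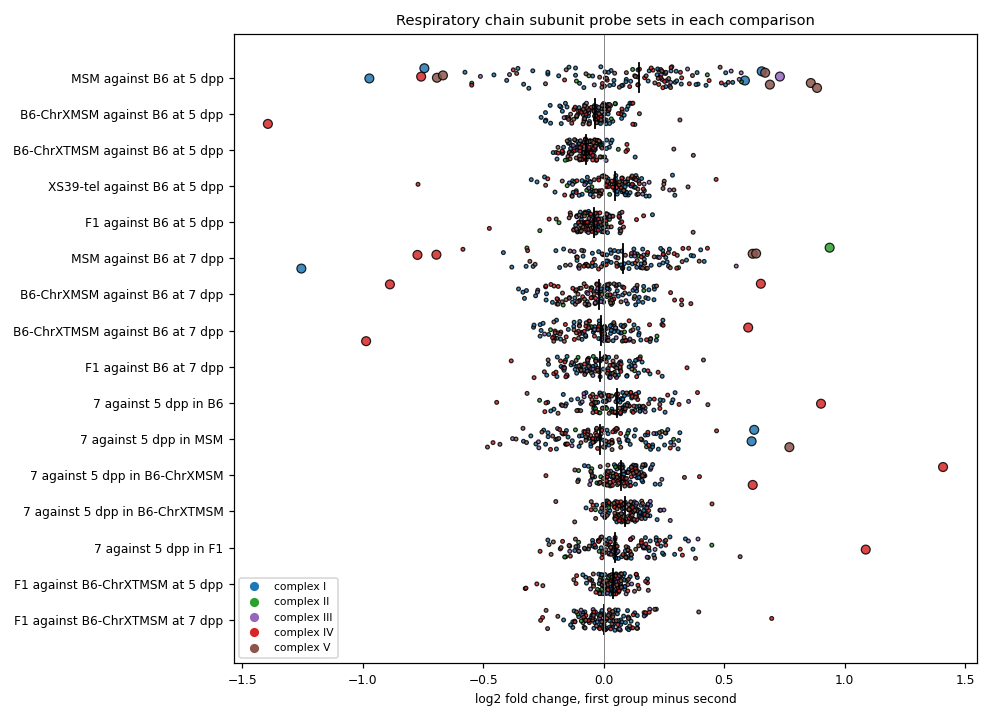
Log2 fold changes (x axis, first group minus second) of the subunit probe sets tested in each of the 16 comparisons of 2 groups (rows), coloured by complex. Large points were called, and the vertical bars mark medians. Outside the MSM comparisons nearly all points lie close to 0 and the called ones are of complex IV.

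Cox7b2, a testis form of complex IV subunit 7B measured by 1 probe set (chromosome 5), had the largest single fall of any subunit gene in the X chromosome strains. That fall was in B6-ChrXMSM at 5 dpp. At 5 dpp its log2 signal was 3.77, 3.67 and 3.99 in B6 and 1.83, 3.19 and 2.23 in B6-ChrXMSM, so that every B6-ChrXMSM male was below every B6 male and their mean was below the level used for testing. The fitted difference was -1.39 (SE 0.31, adjusted p 0.0471). The probe set was tested here through its B6 level alone, so the size of the difference is uncertain, and at a minimum signal of 20 it was not tested at all. The call was lost without the filter (adjusted p 0.104) and when any 1 male other than B6-ChrXMSM replicate 2 was left out. The germ cell markers moved in the same direction there: 13 of 16 tested were called lower, with a median of -1.49, and their summed signal was 225 to 492 in B6-ChrXMSM against 904 to 993 in B6. The 15 Sertoli cell markers summed to 5740 to 5830 against 5510 to 5840. The part of either cell type in the Cox7b2 difference was not tested.

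In the other strains at 5 dpp Cox7b2 was not called. B6-ChrXTMSM males had 3.63, 3.83 and 3.38, which overlapped B6, and the difference was -0.20 (SE 0.13, adjusted p 0.416). F1 males had 3.23, 3.24 and 3.54, all below the B6 males, with a difference of -0.47 (SE 0.12, adjusted p 0.137). XS39-tel males were split, at 2.58 and 2.51 in replicates 1 and 2 and 4.03 in replicate 3, and the fitted difference of -0.77 (SE 0.39, adjusted p 0.346) became -1.27 (adjusted p 0.00504) without replicate 3. The XS39-tel mean was also below the level used for testing, so neither size is firm. Summed germ cell marker signal ranged from 394 to 738 in XS39-tel, from 511 to 634 in F1 and from 685 to 889 in B6-ChrXTMSM.

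At 7 dpp Cox7b2 was lower in both B6-ChrXMSM and B6-ChrXTMSM. B6 males had 4.55, 4.59 and 5.00, B6-ChrXMSM males 4.17, 3.71 and 3.60, and B6-ChrXTMSM males 3.46, 4.13 and 3.59. Neither consomic group overlapped B6. The differences were -0.89 (SE 0.16, adjusted p 0.00375) and -0.99 (SE 0.18, adjusted p 0.00414). In both strains 16 of 18 germ cell markers were also called lower, with medians of -1.42 and -1.37, and their summed signal was 668 to 887 in B6-ChrXMSM and 687 to 1120 in B6-ChrXTMSM against 1950 to 2140 in B6. Sertoli cell markers summed to 6320 to 6680 and 6350 to 6500 against 6070 to 6590, but their mean log2 signal was higher without overlap, at 6.63 to 6.72 and 6.53 to 6.63 against 6.24 to 6.35. Of these markers 3 were called higher in both strains (Krt8, Krt18 and Hsd17b1), while Cldn11 was called lower in both. Gata1 was also called lower in B6-ChrXMSM, where this X-linked gene was an MSM copy, whose part was not tested. The part of these markers in the Cox7b2 difference was not tested.

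The 8 F1 males at 7 dpp spanned the range between the consomic and B6 levels of Cox7b2, from 3.67 through a median of 4.53 to 4.84. Their difference from B6 was -0.29 (SE 0.21, adjusted p 0.401) and that from B6-ChrXTMSM was 0.70 (SE 0.22, adjusted p 0.117). Without F1 replicate 4 the second became 0.80 with an adjusted p of 0.0295. Neither comparison was called with all the males.

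Cox6b2, the testis form of subunit 6B (1 probe set, chromosome 7), went the other way. At 7 dpp it stood at 4.55, 4.73 and 4.73 in B6, at 5.27, 5.36 and 5.34 in B6-ChrXMSM and at 5.17, 5.27 and 5.38 in B6-ChrXTMSM. Every consomic male was above every B6 male. The differences were 0.65 (SE 0.07, adjusted p 0.000236) in B6-ChrXMSM and 0.60 (SE 0.08, adjusted p 0.000933) in B6-ChrXTMSM, or 1.57-fold and 1.52-fold, and the second fell just under 1.5-fold without B6 replicate 1 (0.54) or B6-ChrXTMSM replicate 3 (0.55). Germ cell marker signal, as above, was lower in the same males; its part in the Cox6b2 difference was not tested.

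At 5 dpp Cox6b2 was not called in these strains: B6 males had 5.14, 5.11 and 5.10, B6-ChrXMSM males 5.42, 5.21 and 5.08, and B6-ChrXTMSM males 5.19, 5.20 and 5.25. The differences of 0.12 (SE 0.09, adjusted p 0.451) and 0.10 (SE 0.04, adjusted p 0.252) did not pass the test, although every B6-ChrXTMSM male was above every B6 male. XS39-tel males, at 5.32, 5.78 and 5.65, all lay above the B6 males, but the difference of 0.47 (SE 0.12) had an adjusted p of 0.125. The widely expressed partner, Cox6b1, stayed level: its brighter probe set (1436757_a_at) averaged 9.50 ± 0.04 (SD, n = 3) in B6 at 7 dpp, 9.45 ± 0.04 in B6-ChrXMSM and 9.46 ± 0.01 in B6-ChrXTMSM.

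**Figure D2:**
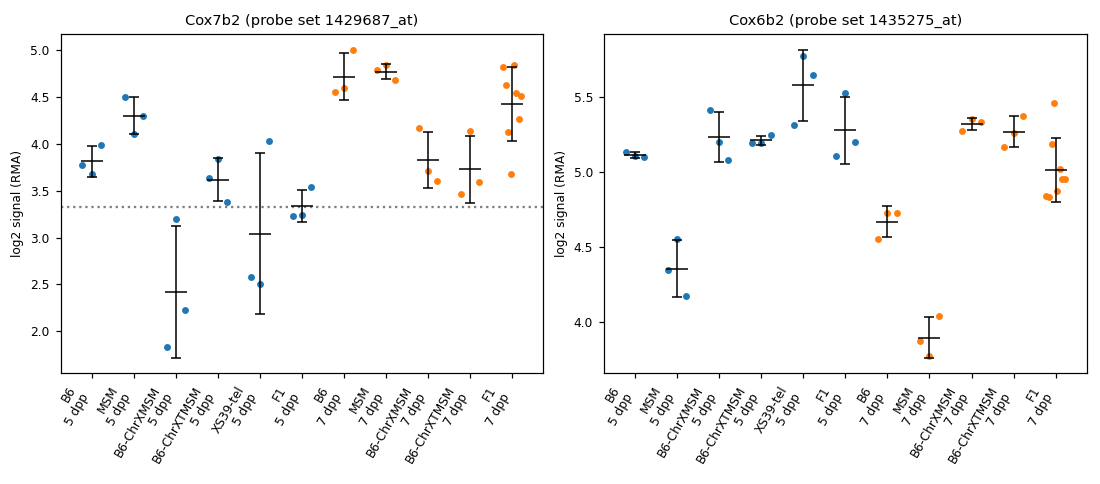
Log2 signal of Cox7b2 (left) and Cox6b2 (right) in every male, by group, blue at 5 dpp and orange at 7 dpp. Bars give mean ± SD, and the dotted line is the level used for testing. At 7 dpp the consomic males were below B6 for Cox7b2 and above it for Cox6b2.

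The 8 F1 males at 7 dpp differed among themselves in the germ cell markers and in both isoforms. The summed germ cell marker signal ran from 1000 to 2240. Cox7b2 was lowest, at 3.67 and 4.12, and Cox6b2 highest, at 5.46 and 5.19, in replicates 4 and 3, the 2 males with the least marker signal (1000 and 1050). These 2 males stood apart from the other 6, whose sums began at 1590, so no relation over all 8 is given. Within the 6, Pearson's r against the log2 sum was 0.88 for Cox7b2 (exact permutation p 0.025, adjusted over the 2 genes 0.05, which is not under 0.05). Spearman's rho was 0.94 (exact permutation p 0.0167, adjusted 0.0333). Arrays of replicates 5 to 8 correlated at 0.995 to 0.997 and those of 1 and 2 at 0.997, but the 2 sets with each other at 0.992 to 0.994. Permutation treats the 6 males as interchangeable, so the p-values for both genes are approximate. For Cox6b2 r was -0.69 (exact permutation p 0.15, adjusted 0.15) and rho -0.71 (exact permutation p 0.136, adjusted 0.136), which did not pass the test.

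**Figure D3:**
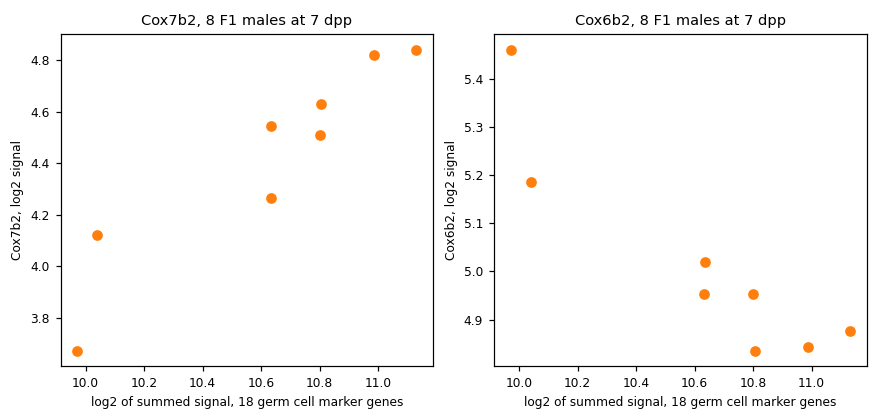
Log2 signal of Cox7b2 (left) and Cox6b2 (right) in the 8 F1 males at 7 dpp (y axes) against the log2 of the summed signal of 18 germ cell marker genes (x axes). Each point is 1 male. The 2 males with the least marker signal had the lowest Cox7b2 and the highest Cox6b2.

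Of the other isoform pairs of complex IV, only Cox7a1 was called in any comparison, between the ages in B6-ChrXMSM. Cox7a1, the muscle form of subunit 7A (1418709_at), was near the level used for testing, at 4.06, 4.11 and 4.12 in B6 and 4.25, 4.39 and 4.55 in B6-ChrXMSM at 7 dpp. The B6-ChrXMSM males were all higher, by 0.29 (SE 0.08, adjusted p 0.0194), under the 1.5-fold required. In MSM its difference from B6 was -0.55 (SE 0.15, adjusted p 0.0128) at 5 dpp and -0.58 (SE 0.09, adjusted p 0.00073) at 7 dpp, also under 1.5-fold, although both passed it without 1 of the MSM males (replicate 1 or 3 at 5 dpp, -0.65 and -0.64, and replicate 3 at 7 dpp, -0.68), and the second also without B6 replicate 1 (-0.60). Cox7a2, its widely expressed partner, was tested by 2 probe sets, of which the brighter averaged 9.77 ± 0.08 in B6 and 9.81 ± 0.05 in B6-ChrXMSM (SD, n = 3). Cox8c, the testis form of subunit 8 (1455167_at), averaged 4.36 ± 0.13 in B6, 4.12 ± 0.05 in B6-ChrXMSM and 4.17 ± 0.14 in B6-ChrXTMSM at 7 dpp. It was not called in any comparison.

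Cox4i2, Cox6a2 and Cox8b were below the level used for testing in every group. Group means of Cox4i2 lay between 1.78 and 2.06, those of Cox8b between 1.49 and 1.97, and those of the brighter Cox6a2 probe set between 2.84 and 3.29. Fat tissue markers differed widely between single arrays at 5 dpp, with a sum over 12 genes of 686 to 3040 in B6. At 7 dpp the sums were 532 to 566 in B6 and 676 to 1090 in B6-ChrXMSM, in which Cox7a1 was higher. They were 717 to 908 in B6-ChrXTMSM and 528 to 917 in MSM, in which Cox7a1 was lower. At 5 dpp Lpl averaged 9.38 and Car3 8.32 in B6. At 7 dpp Lpl, by far the brightest of the 12 in B6, made up most of the B6 sums, so the sums of that age rest largely on this gene. It averaged 8.69 in B6, 9.20 in B6-ChrXMSM, 9.20 in B6-ChrXTMSM and 8.42 in MSM. Only 7 of the 12 genes were above the level used for testing in any group. Car3 and Fabp4, both fat genes, were called higher than B6 in all 3, from B6 levels below the one used for testing. The differences were 3.64 and 2.51 in B6-ChrXMSM and 4.31 and 2.71 in B6-ChrXTMSM, with 4.38 for Car3 in MSM. Of the 5 fat genes tested in each, no other was called higher. Dgat2 was called lower in B6-ChrXMSM (-1.16) and in B6-ChrXTMSM (-1.15). The part of fat in the Cox7a1 differences was not tested. Ucp1, the defining gene of brown fat, stayed at or below 1.58 on every array. All 11 skeletal muscle markers were below the level used for testing in every group. Cox4i1, Cox6a1 and Cox8a, the widely expressed partners, had group means of 9.39 to 9.73, 8.68 to 8.99 (the dimmer of its 2 probe sets) and 8.19 to 8.51.

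Of the subunit genes counted here, 2 lie on the X chromosome. Both lie proximal to the MSM stretches of B6-ChrXTMSM and XS39-tel, so their MSM copies were present in MSM and B6-ChrXMSM males alone. Cox7b, the partner gene of Cox7b2, had no probe set assigned to it alone and was neither counted nor tested. Ndufb11 is a membrane arm subunit of complex I. Its 3 probe sets were not called in any comparison. For the brightest B6 males had 9.31, 9.27 and 9.31 at 5 dpp and B6-ChrXMSM males 9.29, 9.25 and 9.17, a difference of -0.06 (SE 0.06, adjusted p 0.57). MSM males, with the same copy, differed from B6 by -0.19 at 5 dpp (SE 0.06, adjusted p 0.0287, under 1.5-fold). At 7 dpp B6 males had 9.04, 9.10 and 9.09, B6-ChrXMSM males 9.33, 9.26 and 9.26, and B6-ChrXTMSM males 9.28, 9.28 and 9.33. Both consomic groups lay above B6, with no overlap, by 0.21 (SE 0.05, adjusted p 0.0162) and 0.22 (SE 0.05, adjusted p 0.0104), although only the first carried the MSM copy of Ndufb11.

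Ndufa1, a small complex I subunit, has a single probe set that is listed as differing in sequence between B6 and MSM, and it was therefore not tested. Its signal lay between 8.90 and 9.22 on all 38 arrays. In B6 it was 9.13, 9.12 and 9.08 at 5 dpp and 9.14, 9.19 and 9.22 at 7 dpp. At 7 dpp it was 9.07, 9.06 and 9.07 in B6-ChrXMSM, which carried the MSM copy, and 9.10, 9.08 and 9.12 in B6-ChrXTMSM, which carried the B6 copy. Both groups lay below B6 without overlap. In B6-ChrXMSM a lower level and weaker probe binding cannot be told apart.

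**Figure D4:**
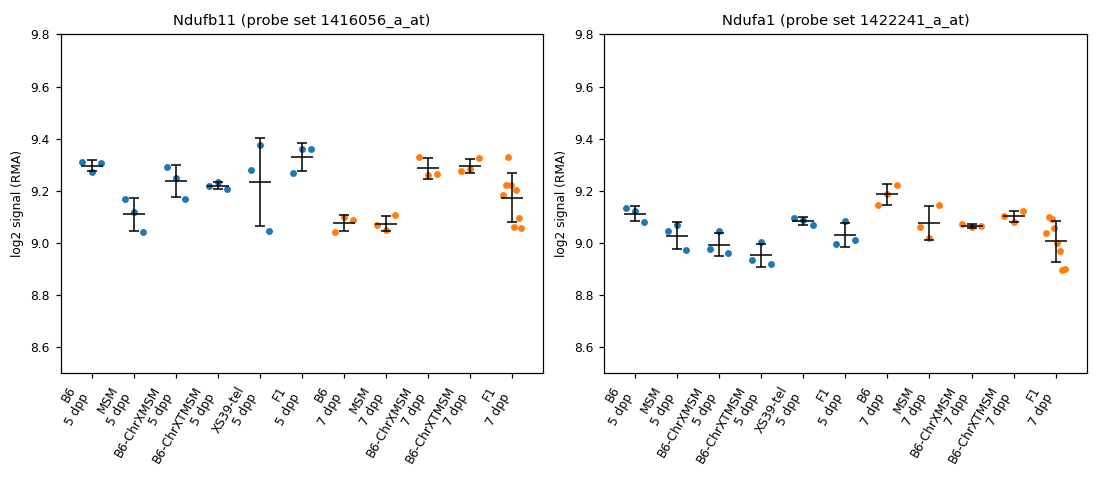
Log2 signal of the X-linked subunit genes Ndufb11 (left) and Ndufa1 (right) in every male, by group, blue at 5 dpp and orange at 7 dpp, with mean ± SD. All values lie between 8.90 and 9.38.

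Chromosome 1, of which F1 males had 1 MSM copy, carries 5 of the genes: Ndufs1 and Ndufa10 of complex I, Ndufb3 of complex I, Sdhc, a membrane anchor of complex II, and Cox5b of complex IV. The only Ndufb3 probe set is listed as polymorphic and was not tested in the F1 comparisons. None of the tested probe sets of the other genes was called in F1 males against B6 or against B6-ChrXTMSM at either age. Against B6-ChrXTMSM none of 129 subunit probe sets was called by limma at 5 dpp (0.0483% of all called, and 6 subunit probe sets at an unadjusted p under 0.05) and none of 128 at 7 dpp (0.325% of all called, 9 at an unadjusted p under 0.05). The largest chromosome 1 difference in these 4 comparisons was that of Sdhc against B6 at 5 dpp, -0.19 (SE 0.06, adjusted p 0.208). Ndufa10 was 0.17 lower than in B6-ChrXTMSM at 7 dpp (log2 difference -0.17, SE 0.05, adjusted p 0.111).

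The MSM parent differed from B6 in many more subunits, mostly upward at 5 dpp. Of 129 probe sets 12 were called, 7 higher and 5 lower (9.3%), where 28.3% of all probe sets were called. The median over the subunits was 0.15 against 0.08 over all probe sets tested, and 91 of the 129 were higher, a count not made over all probe sets. By complex the medians were 0.31 for complex III, 0.20 for complex IV, 0.19 for complex V, 0.11 for complex I and 0.03 for complex II. At 7 dpp 3 were called higher and 3 lower (4.65% against 17.3% of all), and the median of 0.08 was below the 0.10 of all probe sets. MSM sequences can mismatch the probes, which were designed on other strains, and on autosomes other than chromosome 1 no list of such probes was used here, so expression and probe binding cannot be told apart for any single probe set.

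In complex V the higher probe sets at 5 dpp were those of Atp5mpl (a small proteolipid of the membrane part), Atp5g2 (a gene for the c ring), Atp5d (the delta subunit of the central stalk) and Atp5l (subunit g). Atp5mpl (1428258_at) had 8.35, 8.37 and 8.32 in B6 and 9.27, 9.22 and 9.21 in MSM, a difference of 0.89 (SE 0.06, adjusted p 8.2e-06), and the groups did not overlap. Atp5g2 (1415980_at) had 8.14, 8.13 and 8.05 in B6 and 8.99, 8.97 and 8.94 in MSM, a difference of 0.86 (SE 0.06). Atp5g2 was also higher at 7 dpp, by 0.62 (SE 0.07, adjusted p 0.000145), at 8.53, 8.54 and 8.53 against 7.81, 7.89 and 8.04. It fell just under 1.5-fold, at 0.57, without B6 replicate 1. Atp5d and Atp5l differed by 0.69 and 0.67 at 5 dpp, and in complex III Uqcr10, a small subunit, by 0.73.

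In complex I the results depended on the probe set. Ndufv1, the flavin-carrying subunit that accepts electrons from NADH, was lower on 1415966_a_at, with 7.92, 7.90 and 7.88 in B6 and 6.91, 6.95 and 6.93 in MSM at 5 dpp, a difference of -0.97 (SE 0.06, adjusted p 4.8e-06). At 7 dpp it was lower again (log2 difference -1.25, SE 0.07, adjusted p 3.4e-06). On 1415967_at the same gene was 0.28 higher (SE 0.06, adjusted p 0.0043) at 5 dpp, with 7.44, 7.39 and 7.43 in B6 and 7.70, 7.75 and 7.64 in MSM. The third probe set gave -0.31 (SE 0.07). Ndufv2, the partner iron-sulfur subunit, was called lower on 1 of 3 probe sets (-0.74) and stood at 0.01 on another.

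Ndufa7, an accessory subunit of complex I, had 5 probe sets that lay on the same side. All 5 were higher in MSM at 5 dpp, from 0.39 to 0.66, with 2 of them called (1 of these fell just under 1.5-fold, at 0.57 to 0.58, without B6 replicate 1 or 3 or MSM replicate 1 or 3), and from 0.08 to 0.25 at 7 dpp with none called. The highest (1436567_a_at) averaged 8.45 ± 0.02 in B6 and 9.11 ± 0.03 in MSM (SD, n = 3) at 5 dpp.

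Sdha, the flavoprotein of complex II, had 2 probe sets that went opposite ways at both ages. At 7 dpp 1426689_s_at had 7.27, 7.19 and 7.25 in B6 and 8.17, 8.17 and 8.18 in MSM, a difference of 0.94 (SE 0.05, adjusted p 3.8e-06), while 1426688_at was lower by 0.32 (log2 difference -0.32, SE 0.06, adjusted p 0.00236). At 5 dpp the differences were 0.57 (SE 0.06) and -0.55 (SE 0.08). Atp5o, of the peripheral stalk, was called on 1 of 2 probe sets at 7 dpp (0.63 and 0.21), a call that ended without MSM replicate 1 or 2 (0.57 in each case). Atp5j2 and Atp5a1 were called lower at 5 dpp on dim probe sets with B6 means of 3.57 and 3.34 (-0.67 and -0.69). Their MSM means of 2.91 and 2.65 were below the level used for testing, so that they were tested through B6 alone, while the bright probe sets of these genes stood at 0.13 and 0.24, and at -0.01 and -0.16.

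Cox6b2 was lower in MSM at both ages, the reverse of the consomic males at 7 dpp. MSM males had 4.35, 4.55 and 4.17 at 5 dpp and 3.87, 3.78 and 4.04 at 7 dpp, below every B6 male of the same age. The differences were -0.76 (SE 0.10, adjusted p 0.000234) and -0.77 (SE 0.09, adjusted p 0.000133). At 5 dpp the germ cell markers were higher in MSM (11 of 16 called, median 0.92, sums of 1240 to 1570 against 904 to 993), and at 7 dpp 4 of 18 were called higher and 1 lower, with a median of 0.17. Cox7b2 was 0.49 higher at 5 dpp (SE 0.12, adjusted p 0.00686, under 1.5-fold), with 4.50, 4.11 and 4.30 in MSM, and differed by 0.05 (SE 0.12, adjusted p 0.709) at 7 dpp. Cox7c, a small complex IV subunit, was called lower at 7 dpp (-0.69) on its dim probe set 1459885_s_at.

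**Figure D5:**
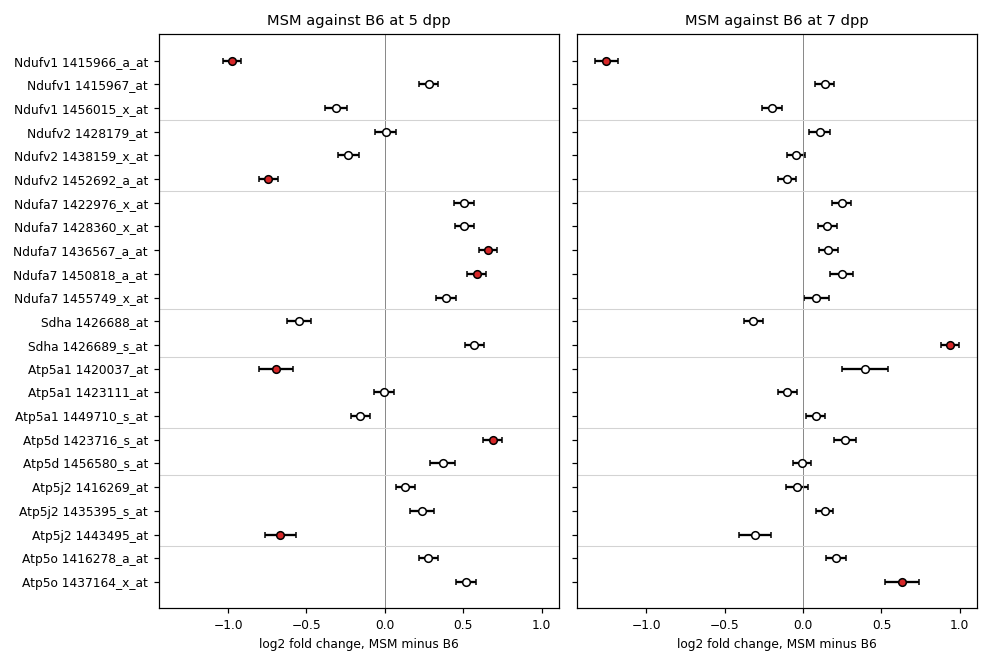
Log2 fold changes, MSM minus B6, with SE bars (x axes) at 5 dpp (left) and 7 dpp (right) for every tested probe set (rows) of 8 genes with 2 or more probe sets, at least 1 of them called. Filled points were called. The 5 Ndufa7 probe sets lie on 1 side of 0 while those of Ndufv1 and Sdha lie on both.

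From 5 to 7 dpp few subunits passed the 1.5-fold limit and all that did were higher at 7 dpp. In B6 limma called 1 of 134, Cox7b2 (8.33% of all probe sets were called), in F1 males 1 of 134, again Cox7b2 (5.56% of all), in B6-ChrXMSM 2 of 133, Cox7b2 and Cox7a1 (2.48% of all), and in B6-ChrXTMSM none of 133 (0.84% of all, 43 subunit probe sets at an unadjusted p under 0.05). In MSM 3 of 133 were called (14.7% of all), on 1 probe set each of Atp5a1, Ndufv2 and Ndufs7, the last of which fell under 1.5-fold without 5 dpp replicate 2 (0.56) or 7 dpp replicate 3 (0.57). Median changes over the subunits ran from -0.02 in MSM (0.05 over all probe sets tested) to 0.09 in B6-ChrXTMSM (0.03 over all). In B6-ChrXTMSM 119 of 133 were higher at 7 dpp. At 5 dpp, however, 120 of 134 were lower in B6-ChrXTMSM than in B6, with a median of -0.07 against -0.01 over all. Both counts share the B6-ChrXTMSM males of 5 dpp. Neither was made over all probe sets, and many of the probe sets counted share a gene and all share the same males. The comparisons of B6 with other strains and with its own other age share the B6 males.

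Cox7b2 rose between the ages by 0.90 in B6 (SE 0.13, adjusted p 0.00124) and by 1.09 in F1 males (SE 0.21, adjusted p 0.00622). In B6-ChrXMSM the fitted rise was 1.41 (SE 0.32, adjusted p 0.0331), but the 5 dpp mean of 2.42 was below the level used for testing, so its size cannot be set beside the others. The call in B6-ChrXMSM was lost when any 1 male other than 5 dpp replicate 2 was left out, with adjusted p up to 0.115. In MSM the change was 0.47 (SE 0.10, adjusted p 0.00576), under 1.5-fold, and in B6-ChrXTMSM 0.11 (SE 0.18, adjusted p 0.726). Germ cell markers rose over the same interval in B6 (16 of 18 called), B6-ChrXMSM (12 of 16), F1 males (15 of 16) and MSM (9 of 18). In B6-ChrXTMSM the median change of 16 markers was 0.05.

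Cox6b2 fell by 0.44 in B6 (log2 change -0.44, SE 0.06, adjusted p 0.00099) and by 0.46 in MSM (log2 change -0.46, SE 0.11, adjusted p 0.00853), both under 1.5-fold. In B6-ChrXMSM its change was 0.09 (SE 0.09, adjusted p 0.574) and in B6-ChrXTMSM 0.06 (SE 0.06, adjusted p 0.591). Cox7a1 was 0.62 higher at 7 dpp in B6-ChrXMSM (SE 0.11, adjusted p 0.0154), 0.45 in B6-ChrXTMSM (SE 0.07, adjusted p 0.0137) and 0.31 in B6 (SE 0.05, adjusted p 0.0017). Its call in B6-ChrXMSM ended without 5 dpp replicate 3 (0.51) or 7 dpp replicate 3 (0.54).

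Whether a strain difference changed with age was tested as the difference from B6 at 7 dpp minus that at 5 dpp. For B6-ChrXTMSM 1 of 134 subunit probe sets was called, Cox7b2 at -0.79 (SE 0.25, adjusted p 0.0446, 5.19% of all called). That call was lost, with adjusted p of 0.0551 to 0.0992, when any 1 of the 12 males was left out other than B6 replicate 3 or B6-ChrXTMSM replicate 3 at 5 dpp and B6 replicate 1 or B6-ChrXTMSM replicate 2 at 7 dpp. In the same test Cox6b2 reached 0.50 (SE 0.09, adjusted p 0.00363), under 1.5-fold. For B6-ChrXMSM limma called none of 134 (1.4% of all, 13 at an unadjusted p under 0.05), and Cox6b2 stood at 0.53 (SE 0.11, adjusted p 0.0279). For F1 none of 129 was called (0.0117% of all, 2 at an unadjusted p under 0.05). For MSM 3 of 129 were called (12.1% of all): Atp5a1 (1.09) on its dim probe set, where MSM at 5 dpp and B6 at 7 dpp were below the level used for testing, Ndufv2 (0.64) on 1 of 3, and Atp5mpl (-0.72), which was higher in MSM by 0.89 at 5 dpp and by 0.17 at 7 dpp. Ndufb11 reached 0.28 to 0.32 on its 3 probe sets for B6-ChrXTMSM, with adjusted p from 0.00459 to 0.00864, all under 1.5-fold.

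Genes that build, regulate or feed the chain gave few calls at 7 dpp, where 6.09% of all probe sets were called in B6-ChrXMSM and 5.73% in B6-ChrXTMSM, and nothing particular to them is read from these counts. In B6-ChrXMSM at 7 dpp 2 of 40 assembly factors were called lower, Ecsit, which helps assemble complex I (-0.81, SE 0.09, adjusted p 0.000398), and Ttc19 of complex III (-0.71, SE 0.09, adjusted p 0.000502). Ttc19 rose between the ages in B6 (0.62, SE 0.08, adjusted p 0.000627) and in F1 males (0.65, SE 0.11, adjusted p 0.00472). Of 16 regulators of mitochondrial biogenesis, 1 was called lower at 7 dpp in both strains, Pprc1, a coactivator related to PGC-1 (-0.61 and -0.67). Of 16 citric acid cycle genes, 1 was called higher in both, Idh2, the mitochondrial NADP-dependent isocitrate dehydrogenase (0.59 and 0.62), which fell between the ages in B6 (-0.85, SE 0.06, adjusted p 5.3e-05).

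In MSM at 5 dpp, where 28.3% of all probe sets were called, 2 of 39 assembly factors were called higher and 3 lower. The higher ones were Timmdc1 of complex I (1.23, SE 0.09, adjusted p 1.5e-05) and Ecsit (0.78, SE 0.09, adjusted p 0.000146). Lower were Sco1 (mean 3.34 in B6 and 2.34 in MSM, the second below the level used for testing), Acad9 (5.80 and 5.17) and Cox17 (7.27 and 6.68). Timmdc1 was also higher at 7 dpp (1.16). Cytochrome c carries electrons from complex III to complex IV and has a somatic gene, Cycs, and a testis gene, Cyct. Cycs was not called in any comparison. Cyct was called higher at 7 than at 5 dpp in F1 males (0.73, SE 0.17, adjusted p 0.0127) and lower in MSM than B6 at 7 dpp (-0.81, SE 0.08, adjusted p 6.8e-05). In B6-ChrXMSM at 7 dpp Cyct stood at -0.47 (SE 0.18, adjusted p 0.0666) and in B6-ChrXTMSM at -0.50 (SE 0.14, adjusted p 0.0227, under 1.5-fold). At 5 dpp it stood at -0.91 in B6-ChrXMSM (SE 0.32, adjusted p 0.153) and -0.54 in XS39-tel (SE 0.19, adjusted p 0.219). The MSM difference in Cyct changed with age by -0.84 (SE 0.14, adjusted p 0.000745), which was called.

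The symbol rule also took in Ndufa4l2 and Cox7a2l, which are not established subunits of complexes I to V but are counted with them here. Ndufa4l2, a hypoxia-induced relative of Ndufa4, had group means of 2.75 to 3.20, below the level used for testing in every group. Cox7a2l, which joins complexes III and IV into supercomplexes, was lowest in B6 at 7 dpp on 3 probe sets, with means of 8.25 ± 0.03, 7.68 ± 0.08 and 7.85 ± 0.06 (SD, n = 3) there against 8.58 ± 0.05, 8.05 ± 0.04 and 8.13 ± 0.07 in B6-ChrXMSM. It was not called in any comparison.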

How the data were processed

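Testis RNA of 38 males was hybridised to Affymetrix mouse expression arrays, 1 male to an array. The authors deposited log2 signals per probe set, normalised by RMA (named in the submitters' processing notes). Gene names came from the platform annotation, in which 34958 probe sets had 1 symbol, 932 several and 9211 none. Tests used limma 3.58.1 in R 4.3.3, fitted per comparison over all probe sets with 1 gene on an autosome or X, with Benjamini-Hochberg adjustment. In all comparisons 258 probe sets polymorphic on the X chromosome were left out, and 723 on chromosome 1 where only 1 side carried an MSM copy, after the study's list. The genes named were the X-linked members, chromosome 1 members in F1 comparisons, complex IV isoform pairs, up to 25 called members, the extremes of each comparison and non-subunit matches, with called genes of the outside lists. Members and lists were chosen with earlier results of these data known. The fit was tested on simulated data. Relations in F1 males used scipy 1.17.1. Alternatives were array medians subtracted, no filter, a filter at 20, polymorphic probe sets kept, 1 fit over all groups, no fold limit, a replicate block, and each male left out. The number of arrays limits precision.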

Additional observations from a re-analysis of the deposited data

Results flagged for a closer look

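For 4 subunit probe sets the strain difference changed between 5 and 7 dpp by the test of the change itself. The difference of B6-ChrXTMSM from B6 in Cox7b2 changed by -0.79 (SE 0.25, adjusted p 0.0446). The difference of MSM from B6 changed by 1.09 for Atp5a1 on its dim probe set 1420037_at (with MSM at 5 dpp and B6 at 7 dpp below the level used for testing), by -0.72 for Atp5mpl and by 0.64 for Ndufv2 on 1452692_a_at.

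Of 39 tests for a single male far from the others of the 8 F1 males at 7 dpp, 1 passed, where about 1 in 20 would by chance. It was replicate 3 for the dim Atp5a1 probe set 1420037_at, at 3.58.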

How the results depend on the processing

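No called member changed direction under any alternative, and 25 of 34 called results for single probe sets kept their call under all of them. With no fold limit the calls rose to 86 for MSM against B6 at 5 dpp, 53 for MSM, 32 for B6-ChrXMSM, 30 for B6-ChrXTMSM and 1 for F1 against B6 at 7 dpp, 37 between the ages in B6, 42 in MSM, 5 in B6-ChrXTMSM and 17 in F1, and 38, 1 and 15 for the change with age of the MSM, B6-ChrXMSM and B6-ChrXTMSM differences. Shares of all probe sets with no fold limit are given above for B6-ChrXMSM and B6-ChrXTMSM against B6 at 7 dpp alone. Nothing particular to the subunits is read from the other counts with no fold limit. Without the filter on low values the calls were 0 for B6-ChrXMSM against B6 at 5 dpp, 11 for MSM at 7 dpp, 1 between the ages in B6-ChrXMSM, 6 for the change with age of MSM and 0 for that of B6-ChrXTMSM. With the filter at 20 they were 0 for B6-ChrXMSM at 5 dpp and 1 between its ages, and with 1 fit over all groups 1 between the ages in B6-ChrXMSM and 0 for the change with age of B6-ChrXTMSM. The cause of these changes was not tested. Subtracting array medians or keeping polymorphic probe sets moved no count by over 1.5 times.

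Same-numbered males did not deviate together (correlations of -0.32 to 0.30, and in 0 comparisons were all pairs above 0.1). The replicate block gave 0 calls for B6-ChrXMSM against B6 at 5 dpp (Cox7b2 adjusted p 0.0706) and 0 for the change with age of B6-ChrXTMSM (Cox7b2 adjusted p 0.0577), and moved no other count by over 1.5 times.

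Leaving out 1 male at a time gave 0 to 1 calls for B6-ChrXMSM and for XS39-tel against B6 at 5 dpp, 1 to 2 for B6-ChrXTMSM against B6 at 7 dpp, 0 to 2 between the ages in B6-ChrXMSM, 1 to 2 in F1, 0 to 1 for F1 against B6-ChrXTMSM at 7 dpp, and 0 to 1 for the change with age of B6-ChrXMSM and of B6-ChrXTMSM. Probe sets near the level used for testing, Cox7b2 among them, were the least precise.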
